A study of Mus musculus with 15 samples.

Results

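The 44 genes described here carry the Wnt signal from the cell surface to the nucleus, and were taken by name from an allele-specific expression table of 44260 genes, where all 44 are listed. They comprise 9 Frizzled receptors, 2 co-receptors, 2 noncanonical receptors, 2 ligands, 2 secreted inhibitors, 4 genes of receptor turnover, 3 Dishevelled genes, 7 genes of the destruction complex and its ubiquitin ligase, 7 nuclear effectors, 3 corepressors and 3 planar polarity genes. All lie on autosomes. The material was day 12 organoids of mouse cerebral cortex, grown from epiblast stem cells of SpretB6 hybrid lines, in 3 libraries titled C1, C2 and C3 and called libraries 1 to 3 here. Every cell of these lines holds a set of autosomes from Spret, a wild-derived inbred strain, and a set from B6, the laboratory strain C57Bl/6J. Each library therefore gives 2 values per gene, a Spret value and a B6 value, read from the same RNA, and the design asks which genes are expressed unequally from the 2 alleles when both sit in the same nucleus. Whether the 3 libraries came from separate cultures is not stated, so the p-values cover only the variation among these 3, some of which could be technical. The opposite cross is not among the samples used, so the strain of an allele and the parent it came from cannot be told apart.

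In the canonical Wnt pathway, a secreted Wnt protein binds a Frizzled receptor together with the co-receptor Lrp5 or Lrp6. Dishevelled is recruited, the destruction complex of Axin, Apc, Gsk3 and casein kinase stops marking beta-catenin for degradation, and beta-catenin enters the nucleus to act with Tcf and Lef factors on target genes. In the embryonic forebrain, Wnts from the cortical hem pattern the dorsal telencephalon and are needed for the hippocampus, and beta-catenin promotes the proliferation of cortical progenitors. A noncanonical branch through Vangl and Prickle proteins orients cells within a sheet and guides axons.

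The values are the authors' normalised allele-specific read numbers, in whole numbers, and the columns of the 3 libraries summed to 2337998, 2088788 and 2639912 for Spret and to 2701847, 2413876 and 3027078 for B6. The number of reads behind a value is not known, so no counting interval is given. Spret took 47.7%, 47.7% and 47.9% of autosomal values in libraries 1, 2 and 3. The tissue label names epiblast stem cells, while the growth protocol describes organoids. Summed over both alleles, 12 dorsal forebrain markers reached 2392, 2562 and 1723 per 1000000 of a library's summed values and 6 neuronal markers 3756, 4108 and 3782, against 28.6, 40.6 and 15.2 for 12 epiblast and pluripotency markers, of which 2 passed the filter on low values. The 18 markers of cortical hem, a tissue that makes Wnts, and of choroid plexus summed to 872 in library 1 on the same scale, 313 in library 2 and 170 in library 3. Ttr alone gave 507, 119 and 57.0 of these sums. No marker of any list was at 0 in all libraries.

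Of the 44 genes, 14 (31.8%) differed between the alleles at an adjusted p under 0.05 and are named called below. By the same rule 30.4% of all 15985 tested genes and 28.4% of the 15456 autosomal ones were called, so the share is near the background. Fzd1, Fzd2, Lrp5 and Apc were higher from Spret, which is 9.09% of the 44 against 7.78% of autosomal genes. Fzd3, Fzd8, Dvl1, Gsk3a, Btrc, Ctnnb1, Lef1, Tle1, Tle3 and Vangl2 were higher from B6, which is 22.7% against 20.7%. The test was limma on log2(value + 1) with library and allele as terms, restricted to genes that averaged 10 or more over the 6 allele columns, with Benjamini-Hochberg adjustment over all tested genes. Ratios below are log2 of Spret over B6 on this scale, which understates differences of low values, and are given with their standard error. All 44 genes passed the filter, with mean values between 11.2 for Fzd9 and 2384 for Apc. The median ratio of the 44 was -0.06, against -0.13 over autosomal tested genes, and 19 lay above 0 and 25 below.

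The lean of the whole table toward B6 bears on the split. When each library's ratios were centred on the median of its autosomal genes, which removed shifts of -0.13, -0.13 and -0.12, 11 of the 44 passed, with 6 on the Spret side and 5 on the B6 side. The background was then 26.8% of autosomal genes in all, 13.3% higher from Spret and 13.5% from B6. Fzd3, Dvl1, Gsk3a, Lef1 and Tle3 lost their calls (adjusted p = 0.372, 0.0969, 0.0989, 0.0585 and 0.0541), and Axin1 and Bcl9 were gained for Spret (0.00902 and 0.0168). For those 5 genes, higher from B6 means higher relative to equal values of the alleles. Centring shifts all genes of a library alike, so it does not adjust for mapping or allele assignment that differs by gene. How reads were aligned and assigned to alleles was not given, and its part in the ratios was not tested.

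**Figure D1:**
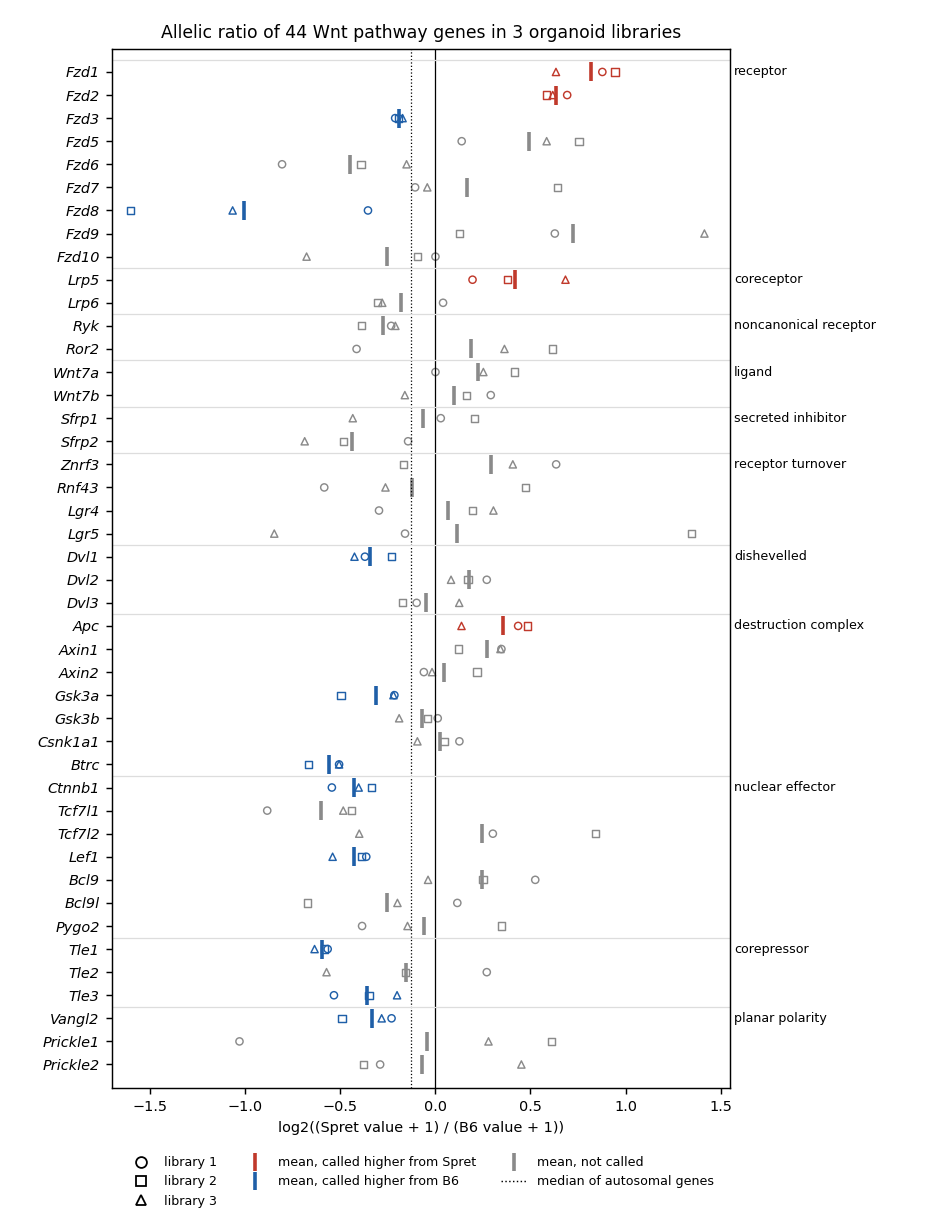
Allelic ratio of each of the 44 genes, as log2 of (Spret value + 1) over (B6 value + 1), with 1 point per library and a bar for the mean over 3 libraries, grouped by role. The 4 genes called for Spret lie to the right of 0 and the 10 called for B6 to the left in all 3 libraries, and the dotted line marks the autosomal median of -0.13.

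Differences were moderate. The median difference of the 14 called genes was 1.34-fold, against 1.56-fold for called autosomal genes, and Fzd8 alone among the 44 reached 2-fold. In 9 genes the Spret and B6 values of the 3 libraries did not overlap. Higher from Spret without overlap were Fzd1, Fzd2, Lrp5 and the uncalled Fzd9, 4 genes where 6.96% of autosomal genes do so. Higher from B6 without overlap were Fzd8, Gsk3a, Tle1, Vangl2 and the uncalled Sfrp2, 5 genes where 16.8% of autosomal genes do so. The other 7 called genes overlapped between alleles across libraries although each differed in the same direction in 3 of 3 libraries.

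**Figure D2:**
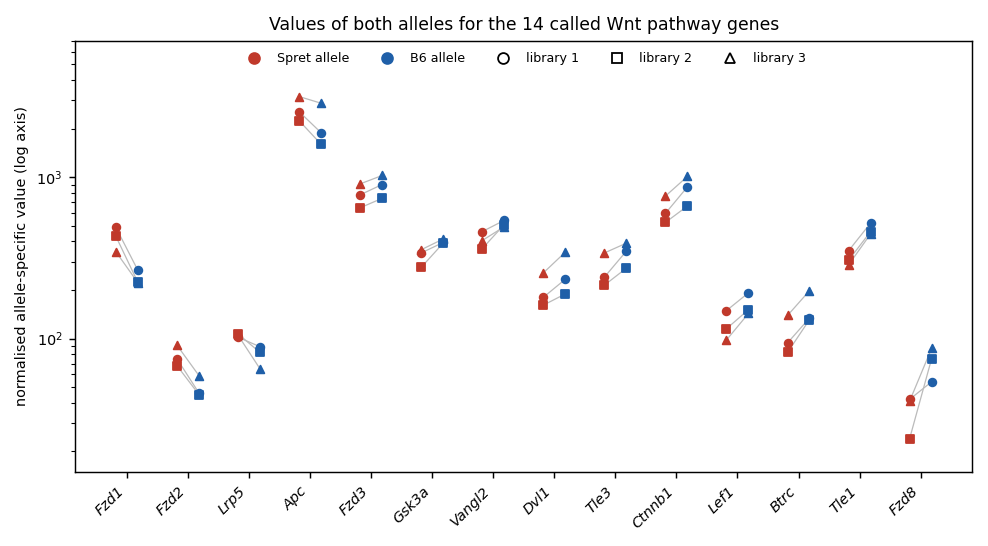
Normalised allele-specific values of the 14 called genes on a log axis, Spret at the left and B6 at the right of each gene, with a line joining the 2 alleles of a library. Lines descend to the right for Fzd1, Fzd2, Lrp5 and Apc and climb for the other 10, in each of the 3 libraries.

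Among the Frizzled receptors, the seven-pass proteins that bind Wnts, Fzd1 and Fzd2 were higher from Spret and Fzd3 and Fzd8 from B6, while Fzd5, Fzd6, Fzd7, Fzd9 and Fzd10 were not called. Fzd1 (chr5:4753839-4758035, minus strand, GRCm38) had Spret values of 488, 430 and 345 in libraries 1, 2 and 3, against B6 values of 265, 223 and 222. The lowest Spret value lay above the highest B6 value. The Spret allele averaged 421 ± 71.9 and the B6 allele 237 ± 24.5 (SD, n = 3 libraries), a ratio of 0.82 ± 0.09 with an adjusted p = 3.15e-06 by limma, or 1.76-fold, and the lowest adjusted p among the 44. Spret supplied 64.8%, 65.9% and 60.9% of the gene's value. Fzd1 and the corepressor gene Tle1 were the 2 of the 14 whose calls held in all 12 alternative settings.

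The promoter of Fzd1 is shown because this gene has the firmest difference among the receptors. RefSeq places it at chr5:4758167-4758466 on the minus strand of GRCm38.p6, from 250 bases before the start to 50 bases from it, and capitals mark the letters TATAAA:
Fzd1: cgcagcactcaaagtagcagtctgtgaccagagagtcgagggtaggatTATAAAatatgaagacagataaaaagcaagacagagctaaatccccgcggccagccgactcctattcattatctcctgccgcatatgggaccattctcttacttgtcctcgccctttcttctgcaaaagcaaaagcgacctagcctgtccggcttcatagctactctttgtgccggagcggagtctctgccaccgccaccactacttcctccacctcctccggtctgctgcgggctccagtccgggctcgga
Its GC content was 54.0% with 16 CG pairs. Besides Fzd1, TATAAA on either strand was found in Ryk and Gsk3b among the 29 of the 44 genes with a promoter in the RefSeq table. This was 10.3%, against 14.2% of 27025 promoters, whether or not the gene passed the filter on low values. The sequence is that of the reference strain, and the Spret sequence was not used here. The window lies wholly outside the span of Fzd1 given above, which is from GENCODE and ends at 4758035, so the RefSeq and GENCODE starts differ.

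Fzd2 (chr11:102604396-102608058, plus strand) had 75, 68 and 91 from Spret and 46, 45 and 59 from B6, with no overlap and Spret shares of 62.0%, 60.2% and 60.7%. Its ratio was 0.63 ± 0.17 (adjusted p = 0.0116). Ratios of the libraries lay between 0.59 and 0.69, but at these low values the call ended without library 1 (0.0824) and without library 3 (0.0757). Fzd8, a chromosome 18 gene of the anterior neural plate and forebrain, had 42, 24 and 41 from Spret against 54, 75 and 87 from B6. It had the largest difference of the 44, with a ratio of -1.01 ± 0.23 (adjusted p = 0.00438) and Spret shares of 43.8%, 24.2% and 32.0%. Libraries differed in its size, with a ratio of -0.35 in library 1 and -1.60 in library 2, and the call held without each library.

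Fzd3 (chr14:65192449-65262463, minus strand), which guides growing axons through the planar polarity branch, had the smallest difference among called genes. Its Spret values were 777, 646 and 908 and its B6 values 900, 739 and 1024. The ranges of the alleles overlapped across libraries, yet within each library Spret supplied 46.3%, 46.6% and 47.0%, the narrowest spread of ratios among the 44 (SD 0.02). The ratio was -0.19 ± 0.05 (adjusted p = 0.0147), the call ended without each library in turn (0.099, 0.0526 and 0.0568), and the ratio with centring was -0.07. The 5 uncalled Frizzled genes had ratios between -0.45 ± 0.36 for Fzd6, a planar polarity receptor like Fzd3, and 0.72 ± 0.38 for Fzd9. Fzd9 had 16, 11 and 15 from Spret and 10, 10 and 5 from B6 (adjusted p = 0.171), and Fzd5 10, 26 and 17 from Spret and 9, 15 and 11 from B6 (0.289). Both were higher from Spret in 3 of 3 libraries, Fzd9 without overlap, and neither passed the threshold. Fzd7, known from pluripotent stem cells, had 90, 102 and 98 from Spret and 97, 65 and 101 from B6 (ratio 0.16, adjusted p = 0.491), with library 2 apart from the other two.

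The co-receptors stood on either side of 0. Lrp5 (chr19:3584828-3686564, minus strand) had 102, 107 and 105 from Spret against 89, 82 and 65 from B6, without overlap. The ratio was 0.42 ± 0.15 and the adjusted p = 0.0467, close to the threshold. The call ended without each library in turn (0.0845, 0.0959 and 0.305), with a pseudocount of 0.5 (0.0509) and with a filter of at least 5 in both alleles (0.0581). Lrp6, the co-receptor whose loss in mice gives the stronger Wnt defects, had 435, 314 and 414 from Spret and 423, 388 and 503 from B6. Its ratio of -0.18 ± 0.08 did not pass (adjusted p = 0.108), with Spret higher in library 1 and B6 in the other two. The difference between the 2 co-receptors was not tested. Of the noncanonical receptors, Ryk, a receptor for Wnt5a in axon guidance, had 159, 102 and 126 from Spret and 187, 134 and 146 from B6, lower from Spret in 3 of 3 libraries at an adjusted p = 0.0801. Ror2, a tyrosine kinase-like receptor for Wnt5a, had 17, 22 and 26 from Spret and 23, 14 and 20 from B6 (0.19 ± 0.31, adjusted p = 0.691).

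None of the 8 genes for ligands, secreted inhibitors and receptor turnover was called by limma, at adjusted p between 0.288 and 0.869, and 0 had an unadjusted p under 0.05. Of the ligands, Wnt7b had 158, 131 and 126 from Spret and 129, 117 and 141 from B6, a ratio of 0.10 ± 0.13. Wnt7a, which with Wnt7b acts on cortical progenitors and brain vessels, had 15, 15 and 24 from Spret and 15, 11 and 20 from B6. Both alleles of both ligands were detected in all 3 libraries. Sfrp1, a secreted antagonist made by cortical progenitors, had 154, 142 and 144 from Spret and 151, 123 and 195 from B6 (-0.07 ± 0.13). Sfrp2 had 18, 14 and 17 from Spret and 20, 20 and 28 from B6, which did not overlap, with a ratio of -0.44 ± 0.30 and an adjusted p = 0.288.

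Ratios of the turnover genes varied widely between libraries. Znrf3 and Rnf43 encode ubiquitin ligases that remove Frizzled from the membrane, and Lgr4 and Lgr5 encode R-spondin receptors that hold them back. Lgr5, also a target of the pathway, had 16, 27 and 4 from Spret and 18, 10 and 8 from B6, with ratios of -0.16, 1.35 and -0.85 in libraries 1, 2 and 3 and the widest spread of the 44 (SD 1.12). Rnf43 had 9, 24 and 9 from Spret and 14, 17 and 11 from B6, Lgr4 34, 47 and 62 from Spret and 42, 41 and 50 from B6. Direction differed between libraries in each of these 3 genes. Znrf3 had 58, 56 and 56 from Spret and 37, 63 and 42 from B6, with the Spret allele steady and the B6 allele variable (0.29 ± 0.21, adjusted p = 0.315).

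The error of a ratio depended on the size of the values. Of the 13 genes whose summed value over both alleles averaged under 100, 0 were called by limma and 0 had an unadjusted p under 0.05, where 18.4% of the autosomal genes at that level were called. The SD of their ratio between libraries had a median of 0.368. Of the 31 genes at or above 100, 14 were called, where 35.7% of autosomal genes were, with a median SD of 0.161. The median standard error was 0.322 below that level and 0.106 above it. This error is moderated by limma toward a trend with the mean value, with 12.3 prior against 2 residual degrees of freedom. Part of its dependence on level therefore comes from the fit. Over the 30 uncalled genes, ratios ran from -0.60 for Tcf7l1 to 0.72 for Fzd9, 4 were higher from Spret and 4 from B6 in all 3 libraries, and direction differed between libraries in 20. The other two, Fzd10 and Wnt7a, had equal alleles in library 1 and 1 direction in libraries 2 and 3.

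**Figure D3:**
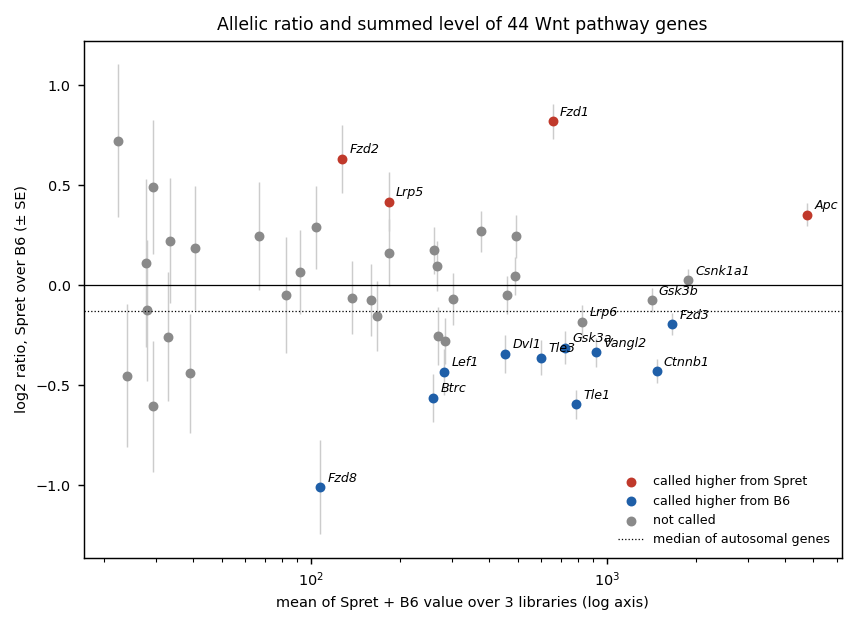
Log2 ratio of Spret over B6 with its standard error against the mean summed value of both alleles (log axis) for the 44 genes. Error bars, moderated by limma toward a trend with the mean value, shrink from a median of 0.322 under a summed value of 100 to 0.106 above it. The 14 called genes all lie above 100.

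Dishevelled proteins relay the signal from Frizzled to the destruction complex, and of 3 genes only Dvl1 was called. Dvl1 (chr4:155847402-155859303, plus strand) had 180, 161 and 255 from Spret against 233, 189 and 343 from B6. Values of both alleles were highest in library 3, and Spret supplied 43.6%, 46.0% and 42.6%. The ratio was -0.34 ± 0.09 (adjusted p = 0.0126), and the call ended without library 1 (0.0942) and without library 3 (0.124). Dvl2 had 128, 124 and 161 from Spret and 106, 110 and 152 from B6, higher from Spret in 3 of 3 libraries but not called (0.17 ± 0.12, adjusted p = 0.291). Dvl3 had 224, 180 and 277 from Spret and 240, 203 and 254 from B6 (-0.05 ± 0.10). No test compared the 3 paralogs with each other.

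In the destruction complex, the scaffold gene Apc was higher from Spret, the kinase gene Gsk3a and the ubiquitin ligase gene Btrc were higher from B6, and Axin1, Axin2, Gsk3b and Csnk1a1 were not called. Apc, on chromosome 18, encodes the tumour suppressor that holds beta-catenin in the complex, and had the largest values of the 44. They were 2548, 2241 and 3158 from Spret, against 1885, 1600 and 2871 from B6. Library 3 had the highest value of both alleles and the smallest excess, with Spret at 57.5%, 58.3% and 52.4% in libraries 1, 2 and 3. The ratio was 0.35 ± 0.06 (adjusted p = 0.00023), or 1.28-fold, and held without each library, with ratios from 0.29 to 0.46.

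Btrc (chr19:45363734-45530013, plus strand), whose protein recognises phosphorylated beta-catenin for degradation, had 94, 82 and 139 from Spret and 134, 131 and 198 from B6. Spret supplied 41.2%, 38.5% and 41.3%, and the ratio was -0.56 ± 0.12 (adjusted p = 0.0026), a call that held without each library. Gsk3a (chr7:25228258-25237851, minus strand) had 339, 276 and 355 from Spret against 394, 390 and 414 from B6, without overlap. Its ratio was -0.31 ± 0.08 (adjusted p = 0.0097), and the call ended without library 1 (0.0509) and library 2 (0.0921). Gsk3b, its paralog, had 713, 624 and 732 from Spret and 707, 642 and 836 from B6, which was not called (-0.07 ± 0.06, adjusted p = 0.398). The casein kinase gene Csnk1a1, which primes beta-catenin for Gsk3, had 1038, 805 and 1003 from Spret and 951, 780 and 1071 from B6 (0.03 ± 0.06, adjusted p = 0.774).

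The 2 Axin scaffolds were uncalled. Axin1 had 214, 171 and 236 from Spret and 168, 157 and 186 from B6, higher from Spret in 3 of 3 libraries with a ratio of 0.27 ± 0.10. It lay just outside the threshold (adjusted p = 0.0579) and inside it without library 2 (0.0431) and with centring (0.00902). Axin2, a standard target that reports canonical Wnt activity, had 300, 205 and 237 from Spret and 313, 176 and 240 from B6. Both alleles were highest in library 1, and the ratio was 0.05 ± 0.09 (adjusted p = 0.748).

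The nuclear effectors Ctnnb1 and Lef1 were higher from B6, and Tcf7l1, Tcf7l2, Bcl9, Bcl9l and Pygo2 were not called. Ctnnb1 (chr9:120929216-120960507, plus strand) encodes beta-catenin, the transducer of the pathway and a component of cell junctions. It had 596, 524 and 763 from Spret and 870, 662 and 1010 from B6, and both alleles were highest in library 3. Within each library the Spret share was 40.7%, 44.2% and 43.0%, and the ratio was -0.43 ± 0.06 (adjusted p = 8.2e-05), or 1.35-fold in favour of B6. The call held without each library and with centring (0.00147). Lef1 (chr3:131110471-131224356, plus strand), a DNA-binding partner of beta-catenin needed for the hippocampus, had 149, 115 and 98 from Spret and 192, 151 and 143 from B6. Its ratio of -0.43 ± 0.11 (adjusted p = 0.0107) ended as a call without library 1 (0.0696) and without library 3 (0.082). Spret supplied 43.7%, 43.2% and 40.7% of it, and both alleles were highest in library 1.

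Of the uncalled effectors, Tcf7l1, a repressor in the absence of signal, had 12, 13 and 9 from Spret and 23, 18 and 13 from B6, lower from Spret in 3 of 3 libraries with an adjusted p = 0.184. Tcf7l2 had 52, 33 and 24 from Spret and 42, 18 and 32 from B6 (0.25 ± 0.27). Bcl9, which links beta-catenin to Pygopus, had 281, 225 and 290 from Spret and 195, 189 and 298 from B6. Spret was higher in libraries 1 and 2 and B6 in library 3, so the call appeared without library 3 (adjusted p = 0.0422) but not with it (0.0962). Bcl9l, its paralog, had 143, 78 and 154 from Spret and 132, 125 and 177 from B6, and Pygo2, a chromatin reader recruited by Bcl9, 61, 55 and 83 from Spret and 80, 43 and 92 from B6, both with directions that differed between libraries.

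Tle proteins are Groucho corepressors that hold Tcf and Lef targets silent, and Tle1 and Tle3 were higher from B6. Tle1 (chr4:72117142-72200919, minus strand) had 350, 306 and 286 from Spret against 519, 459 and 445 from B6, without overlap. The Spret allele averaged 314 ± 32.7 and the B6 allele 474 ± 39.3 (SD, n = 3 libraries). Spret supplied between 39.1% and 40.3% in the 3 libraries, and the ratio was -0.60 ± 0.07 (adjusted p = 1.63e-05). Tle3 (chr9:61372366-61418497, plus strand) had 240, 214 and 339 from Spret against 348, 273 and 390 from B6, a ratio of -0.36 ± 0.09 (adjusted p = 0.00607). Its call ended without library 1 (0.107). Tle2 had 81, 69 and 83 from Spret and 67, 77 and 124 from B6, which overlapped, with Spret higher in library 1 and B6 in the others (-0.15 ± 0.17, adjusted p = 0.545).

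Promoters of Tle1, Ctnnb1 and Gsk3a are shown to set the reference sequence beside these 3 genes called for B6. They lie at chr4:72200844-72201143 (minus strand), chr9:120933150-120933449 (plus strand) and chr7:25237802-25238101 (minus strand) of GRCm38.p6, from RefSeq. The Ctnnb1 window lies inside the GENCODE span of that gene, which begins at 120929216, so the RefSeq and GENCODE starts differ there. Capitals mark every match, on either strand, to the GC box GGGCGG, to CCAAT, to TATAAA and to the TCF/LEF heptamer CTTTGAA, its variant ending in T, which is CTTTGAT, or the related forms CTTTGTA as well as CTTTGTT:
Tle1: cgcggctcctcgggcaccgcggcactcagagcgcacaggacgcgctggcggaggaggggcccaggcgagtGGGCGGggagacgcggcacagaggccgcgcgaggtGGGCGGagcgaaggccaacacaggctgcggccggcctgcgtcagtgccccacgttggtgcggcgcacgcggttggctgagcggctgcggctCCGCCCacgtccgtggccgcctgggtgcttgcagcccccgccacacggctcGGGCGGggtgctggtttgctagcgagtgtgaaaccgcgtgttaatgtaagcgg
Ctnnb1: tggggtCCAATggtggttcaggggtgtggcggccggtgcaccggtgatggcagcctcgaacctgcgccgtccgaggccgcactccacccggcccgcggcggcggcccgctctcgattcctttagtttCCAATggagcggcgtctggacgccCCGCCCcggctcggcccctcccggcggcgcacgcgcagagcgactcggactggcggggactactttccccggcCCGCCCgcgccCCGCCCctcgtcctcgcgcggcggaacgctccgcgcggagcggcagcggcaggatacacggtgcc
Gsk3a: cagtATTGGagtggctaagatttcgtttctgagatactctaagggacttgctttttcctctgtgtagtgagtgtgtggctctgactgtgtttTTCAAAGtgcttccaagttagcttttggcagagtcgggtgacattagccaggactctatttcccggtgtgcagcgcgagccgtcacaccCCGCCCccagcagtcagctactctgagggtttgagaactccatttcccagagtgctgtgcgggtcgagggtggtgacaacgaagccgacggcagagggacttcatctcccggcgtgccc
The Tle1 and Ctnnb1 promoters were rich in GC, at 73.7% with 40 CG pairs and 75.3% with 46, against 54.3% with 14 in Gsk3a. Tle1 held 4 GC boxes and Ctnnb1 held 3 with 2 CCAAT letters, while Gsk3a held 1 of each and the heptamer TTCAAAG, read on the other strand, from base 93. Over the 29 matched genes, GC boxes were in 79.3% against 35.9% of all promoters, CCAAT in 31.0% against 37.9% and a TCF/LEF heptamer in 6.9% against 16.9%. All promoters here include genes that did not pass the filter on low values, while all of the 29 passed it. The share over genes that passed was not computed, so the contrast cannot be read as a trait of Wnt genes. The genes with such a heptamer were Fzd7 and Gsk3a. These matches are letters in a window and say nothing on which factor binds.

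Of the planar polarity genes, Vangl2 was higher from B6. Vangl2 (chr1:172000960-172028444, minus strand), a membrane protein needed for neural tube closure, had 460, 361 and 405 from Spret against 540, 508 and 493 from B6. The highest Spret value lay below the lowest B6 value, Spret supplied 46.0%, 41.5% and 45.1%, and the ratio was -0.34 ± 0.07 (adjusted p = 0.003). It held without each library and with centring (0.042). Prickle1, a cytoplasmic partner of Vangl2, had 22, 28 and 73 from Spret and 46, 18 and 60 from B6, with a ratio of -1.03 in library 1 and of 0.61 and 0.28 in libraries 2 and 3. Prickle2 had 66, 56 and 118 from Spret and 81, 73 and 86 from B6. Neither was called, at adjusted p of 0.922 and 0.80.

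**Figure D4:**
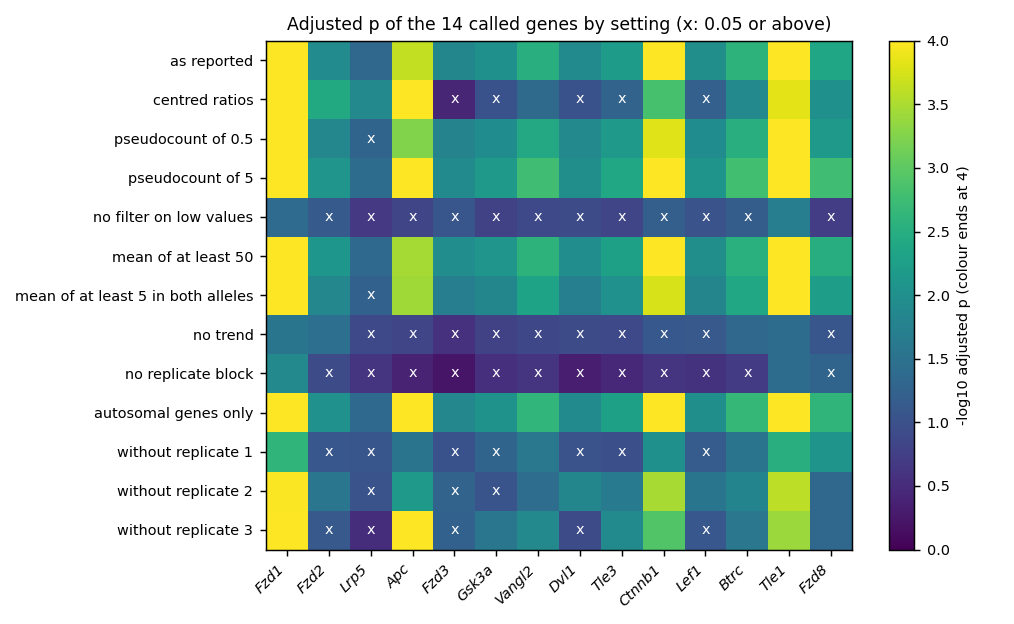
Adjusted p of the 14 called genes, as -log10 in colour, in the reported fit and in 12 alternatives, with a cross where it was 0.05 or above. Fzd1 and Tle1 have no cross, and Lrp5 and Fzd3 have the most.

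Levels over both alleles, per 1000000 of a library's summed values, differed between the 3 libraries for some genes of the pathway. Libraries are replicates of a single group, so these are values with no test, and in bulk organoids fewer cells of a type and less RNA per cell cannot be told apart. Of the 44 genes, 17 stayed within 1.2-fold between their highest and lowest library and 10 passed 1.5-fold, with a median of 1.28. Gsk3b, at 282, 281 and 277 in libraries 1, 2 and 3, and Sfrp1, at 60.5, 58.9 and 59.8, were among the steadiest. Axin2 stood at 122, 84.6 and 84.2, Lef1 at 67.7, 59.1 and 42.5, Tcf7l2 at 18.7, 11.3 and 9.88, and Fzd10, a hem receptor gene, at 9.13, 6.44 and 4.24. These 4, picked after their values were seen, were highest in library 1, but over the 44 genes 17 were highest in library 1, 7 in library 2 and 20 in library 3, and the target Lgr5 stood at 6.75, 8.22 and 2.12. The hem and choroid plexus sum was 872 in library 1 against 313 and 170 in libraries 2 and 3, with 16 of its 18 markers highest in library 1. Its largest marker, Ttr, alone stood at 507, 119 and 57.0. The posterior and diencephalon list of 10 markers, which holds Tcf7l2, summed to 131, 101 and 73.8. The part of either list in the levels was not tested. Fzd1, at 149, 145 and 100, and Tle1, at 172, 170 and 129, were lowest in library 3, while Prickle1, at 13.5, 10.2 and 23.5, and Apc, at 880, 853 and 1064, were highest there. The allelic calls of Fzd1, Tle1 and Apc held without library 3.

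**Figure D5:**
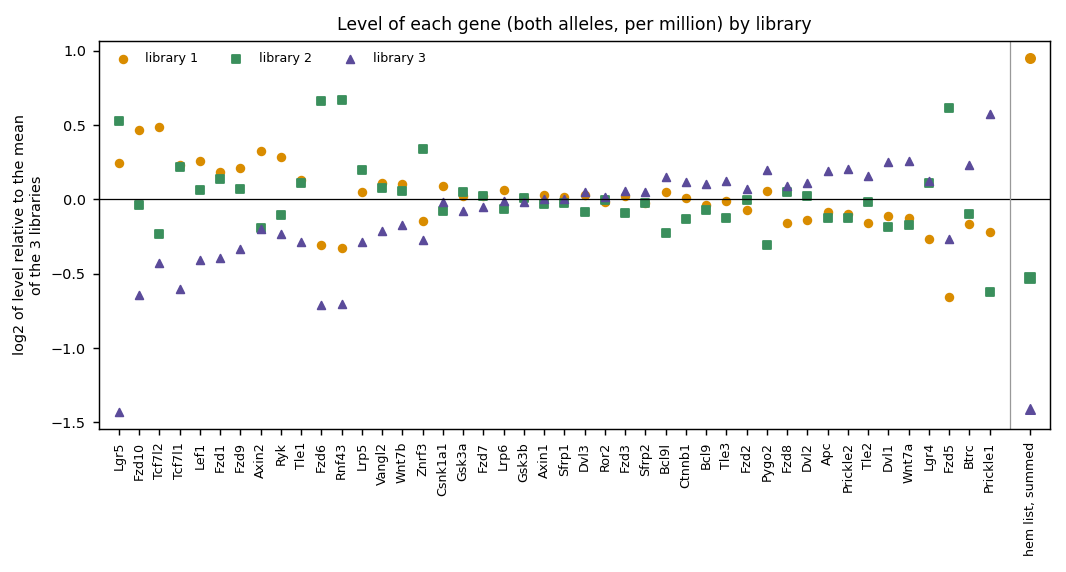
Level of each of the 44 genes over both alleles, per 1000000 of a library's summed values, as log2 relative to the mean of the 3 libraries, with the sum of 18 hem and choroid plexus markers at the right. This sum, at 872 in library 1, 313 in library 2 and 170 in library 3, spreads more widely than Lgr5, which at 3.88-fold varied most among the 44. Ttr alone gave 507, 119 and 57.0 of the sum, and the sum without Ttr is not shown.

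A wider list of 107 other Wnt genes puts the 44 in context. Of 99 on autosomes, 76 passed the filter on low values. Of these, 6 passed the test for Spret and 12 for B6, or 23.7%, with a median ratio of -0.10. By the same rule 28.4% of autosomal tested genes were called, 7.78% for Spret and 20.7% for B6. With centred ratios the counts were 13 and 5, where 13.3% of autosomal genes were called for Spret and 13.5% for B6. The centred counts were not tested against these shares. Of 4 secreted antagonists tested in this list, Sfrp4 and Dkk3 were called, both for Spret, and they had the largest ratios toward Spret in it. Frzb (0.84 ± 0.37, adjusted p = 0.0997 by limma) and Sostdc1 (0.41 ± 0.37, 0.438), also tested, were higher from Spret in 3 of 3 libraries but not called. With genes under the filter and those of the 44 included, antagonists had no single direction. Under the filter, Dkk4 had 9, 9 and 6 from Spret and 2, 4 and 3 from B6. Dkk2, also under it, had 5, 4 and 3 from Spret and 15, 11 and 12 from B6. Sfrp2 of the 44 was lower from Spret without overlap. Sfrp4 had 37, 23 and 37 from Spret and 6, 6 and 3 from B6 (ratio 2.49 ± 0.37, adjusted p = 0.000123). It passed the filter through its Spret values, since its B6 mean was 5.0. Dkk3, a Dickkopf family protein, had 83, 74 and 85 from Spret and 15, 17 and 12 from B6 (2.39 ± 0.24, adjusted p = 1.78e-06). Both exceeded the ratio of any of the 44. Next among called genes came Nkd2 (0.51 ± 0.13, adjusted p = 0.00691) and Nkd1 (0.48 ± 0.16, 0.0345), feedback inhibitors that bind Dishevelled. Their calls ended without library 1 (0.0508 and 0.347), that of Nkd1 also without library 2 (0.0569).

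Toward B6, the list was led by Tbl1x, Amer1, Porcn (whose product acylates Wnts for secretion) and Gpc4, which are on the X chromosome. Their Spret values were 0 or 1 in every library while B6 values ran from 54 to 530. Siah1b, also X-linked and tested, and Prickle3, X-linked and under the filter, had 0 from Spret in every library. All 5 X-linked genes tested were called for B6. The share called over all X-linked genes is not given here, so these calls are not read as a trait of the named genes. On autosomes, Wnt5a, a noncanonical ligand of the hem and limb and the partner of Ryk and Ror2, had 27, 32 and 32 from Spret and 70, 73 and 52 from B6 (-1.06 ± 0.22, adjusted p = 0.00166). Csnk1g3, a casein kinase gene, had 173, 154 and 200 from Spret and 325, 304 and 341 from B6 (-0.88 ± 0.09, adjusted p = 2.62e-06). Fbxw11, the close paralog of Btrc, was also higher from B6, with 150, 128 and 207 from Spret and 213, 245 and 260 from B6 (-0.59 ± 0.12, adjusted p = 0.00152). Senp2, a SUMO protease gene, had a ratio of -0.45 ± 0.11 (adjusted p = 0.00586), and its call ended without library 1 (0.0886) and library 3 (0.0959).

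Genes beside the 14 called ones were also looked at. The nearest tested protein-coding neighbours without overlap were 28, at 0.751 to 1810 kb. Of these, 6 were called (21.4%, against 28.4% of autosomal genes), 2 in the same direction and 4 in the opposite one. Genes that overlap a called one, such as Ulk4 at Ctnnb1, were left out of these counts. Of the 22 uncalled neighbours, 16 had a ratio of the same sign as the called gene and 6 of the other sign. Autosomal tested genes lean to B6, with a median ratio of -0.13, and 10 of the 14 called genes were higher from B6. The sign counts were not compared with that lean, so they show no local agreement. Of the same sign were Zfp526 beside Gsk3a at -0.57 (adjusted p = 0.0535) and Extl3 beside Fzd3 at -0.31 (0.0578). Called in the same direction were Kazald1, 284 kb from Btrc, and Megf9, 1580 kb from Tle1. Srp19, a signal recognition particle gene 8.29 kb from Apc, was opposite, at -1.58 ± 0.22 (adjusted p = 6.74e-05) where Apc was at 0.35. Cyp51, 649 kb from Fzd1, 1810055G02Rik, 21.7 kb from Lrp5, and Rplp1, 495 kb from Tle3, were opposite too. Overlapping genes may touch some calls, since the counting's use of strand is not given. Gsk3a shares 28.3% of its exon bases with 9130221H12Rik on the opposite strand, which was also higher from B6 (-0.42 ± 0.09, adjusted p = 0.00314). Ctnnb1 shares 14.6% with Ulk4, which was higher from B6 as well (-0.46 ± 0.09, adjusted p = 0.00169, lost without library 1 at 0.0716). Dvl2 shares 18.3% with Acadvl, and neither was called. If strand was not used, reads from the shared bases of such partners cannot be told apart. Of the 44, 15, 6 of them called, share exon bases with another annotated gene.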

How the data were processed

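The samples used were 3 libraries of SpretB6 organoids, and 12 samples of induced pluripotent stem cells listed with them were not analysed here. Per the labels, RNA was depleted of ribosomal RNA. The submitters' processing notes name mm10 as the build. How reads were aligned, assigned to alleles, normalised and counted by strand was not given in the sources used here. The authors deposited a table that its name calls normalised, with whole-number values per allele, treated as a score (normalised read numbers that were rounded) and not as raw reads. No gene held 27 of the whole numbers up to 200 in library 1 and 43 in library 2, against 0 in library 3. Tests for read counts were therefore not used.

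From these values, log2(value + 1) was tested with limma 3.58.1 (R 4.3.3). Its terms were allele and library, and its prior variance followed the mean intensity. Library is the pairing term, since both alleles come from the same RNA. Genes with a mean of at least 10 over 6 allele columns were tested, 15985 of 44260, with 2 residual and 12.3 prior degrees of freedom. P-values were two-sided with Benjamini-Hochberg adjustment and a threshold of 0.05. The fit was run on simulated data whose changes were larger than those of all the 44 genes but Fzd8, so that run does not cover smaller differences. Positions come from GENCODE M21, on GRCm38, the assembly that mm10 names, and promoters from RefSeq on GRCm38.p6, with 29 of the 44 matched by symbol. The 44 genes, the wider Wnt list and the marker lists were chosen with earlier results of these data known. Values per library are given for every called gene, for the 4 uncalled genes of highest summed value (Csnk1a1, Gsk3b, Lrp6 and Bcl9) by rule, and for other members as description. Of the wider list, the 4 called genes of largest ratio in each direction are named. Those toward B6 are X-linked, so the next 4, on autosomes, were added after their values were seen. The alternatives were centred ratios, other pseudocounts and filters, no trend, no replicate block, autosomal genes only, and each library left out.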

Additional observations from a re-analysis of the deposited data

How the results depend on the processing

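Fzd1 and Tle1 kept their calls in all 12 alternatives, and none of the 14 called genes changed direction in any. With no filter on low values 2 of the 44 were called (1 for Spret, 1 for B6) and 1236 of all genes, without the trend 4 (2 and 2) and 2229, and with no replicate block 2 (1 and 1) and 1537, against 14 (4 and 10) and 4852. The genes lost had adjusted p of 0.0612 to 0.215 with no filter, 0.0771 to 0.267 without the trend and 0.0513 to 0.60 with no replicate block. Centring left 5 for B6. Leaving out 1 library gave 7 to 12 calls among the 44, 2 to 4 for Spret and 5 to 8 for B6, and 2667 to 4001 among all genes, with the lowest counts without library 1. The other alternatives (pseudocounts of 0.5 and 5, a mean of at least 50, a mean of at least 5 in both alleles, autosomal genes only) gave 13 or 14. For these counts the cause was not tested.

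Of the 30 uncalled genes, 15 changed sign in some alternative. With centring these were Sfrp1 (0.056), Dvl3 (0.074), Gsk3b (0.050), Pygo2 (0.062), Prickle1 (0.076) and Prickle2 (0.051). With 1 library left out, ratios ranged as follows: Fzd7 -0.075 to 0.300, Ror2 -0.026 to 0.490, Sfrp1 -0.203 to 0.117, Rnf43 -0.424 to 0.105, Lgr4 -0.052 to 0.249, Lgr5 -0.504 to 0.594, Dvl3 -0.136 to 0.013, Axin2 -0.040 to 0.100, Csnk1a1 -0.025 to 0.086, Tcf7l2 -0.049 to 0.571, Pygo2 -0.266 to 0.101, Tle2 -0.365 to 0.057, Prickle1 -0.376 to 0.444 and Prickle2 -0.334 to 0.080. When the allele totals of each library were made equal, 12 of 44 Spret shares moved by more than 1 SD. With 3 libraries and unknown read depth, the median standard error of a ratio was 0.322 for the 13 genes under a summed value of 100, so an uncalled ratio there does not show equal alleles.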
